A study of Mus musculus with 4 samples.

Results

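The 4 genes described here belong to the sodium pump and were followed across the cells of mouse sarcomas. They are the beta subunits Atp1b1, Atp1b2 and Atp1b3, and Fxyd5, a small membrane protein that binds the pump. They were taken by gene symbol, and all 4 were present in the malignant and the non-malignant table, which together held 18220 genes. The pump, Na,K-ATPase, moves sodium out of the cell and potassium in at the cost of ATP. Its catalytic subunit carries the site that cardiac glycosides such as digoxin bind and block. The beta subunit brings the catalytic subunit to the cell surface and also joins neighbouring cells, and proteins of the FXYD family tune how fast the pump runs. Fxyd5, also known as dysadherin, is known for weakening cell adhesion in tumors and for being carried by cells of the blood.

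Tumors came from the hind limb of mice of the 129/SvJae strain with conditional Trp53 alleles (Trp53flox/flox), a genotype shared by every sample. Vehicle mice were injected with PBS into the peritoneum, and digoxin mice with 2 mg/kg digoxin, dissolved in DMSO and diluted in PBS, every 24 h until the tumors were taken after the fourth dose. Each group held 2 libraries, numbered in the labels and called mice here. The labels do not state that each came from a separate animal, so the p-values measure only the spread between these libraries. Each tumor was dissociated with enzymes and run as single cells on a droplet platform that tags RNA molecules with unique molecular identifiers (UMIs).

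The data held 18963 malignant cells, with 46799 to 57658 UMIs in the median cell of a mouse, and 12648 non-malignant cells, with 15837 to 16671. Levels are UMIs per 1000000 UMIs of the cell (CPM), averaged over the cells of a population in each mouse. Malignant cells held more UMIs per cell, so a lower CPM there need not mean fewer UMIs of a gene per cell. A level is compared within a gene and never between genes, and a lower mean over all cells of a tumor compartment can come from fewer cells of a type or less RNA per cell, which cannot be told apart there. Unless stated otherwise, values are listed in the order vehicle 1, vehicle 2, digoxin 1, digoxin 2. Malignant cells and 7 deposited cell types, together 8 populations, had at least 20 cells in every mouse and were tested, and B cell, Dendritic, Neutrophil and Unknown cells did not. How the authors named the types is not given in the sources used here, so a test between types measures how well a difference repeated across mice and is not independent evidence of the type.

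The deposited names Microglia and Epithelial went against their markers. The cells named Microglia had Siglech, a receptor of plasmacytoid dendritic cells, at a mean of 2449 CPM, whereas the microglial markers Tmem119 and Sall1 stood at 1.4 and 0 CPM. All 4 plasmacytoid dendritic markers were present, with a summed level of 7704 to 8623 CPM per mouse, against 64.5 to 105 CPM for the 5 microglial markers. The cells named Epithelial had the endothelial cadherin Cdh5 at 888 CPM and Pecam1, an adhesion molecule of vessel walls, at 841 CPM, whereas the epithelial marker Epcam was at 0.1 CPM. Both are called here by their deposited names.

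Atp1b1, the beta subunit best known from epithelia, where it helps neighbouring cells to adhere, was high in the cells named Microglia and in NK cells, lymphocytes that kill without prior sensitization, and low in most other cells. The gene lies on the minus strand at chr1:164437109-164458355 (GRCm38, GENCODE M21, ENSMUSG00000026576.12). In the cells named Microglia it measured 533.6, 664.1, 644.9 and 481.1 CPM. NK cells followed with 105.7, 109.2, 108.5 and 89.5 CPM. T cells held 31.3, 15.6, 30.5 and 15.6 CPM, and malignant cells 5.53, 8.99, 6.99 and 6.83 CPM. In macrophages it was 0.463, 0.382, 1.15 and 0.891 CPM. Every mouse kept the order from the cells named Microglia through NK cells and T cells to malignant cells.

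The steps in that order were larger than the spread between mice, each measured on the scale of log2(CPM + 1) and tested with limma. The cells named Microglia exceeded NK cells by 2.47 (95% interval 2.27 to 2.68), where 51.8% of all genes tested were called. NK cells exceeded T cells by 2.17 (1.78 to 2.57), where 25.1% of all genes were called. T cells exceeded malignant cells by 1.53 (0.81 to 2.24, adjusted p = 0.0040, 67.4% called). Malignant cells exceeded macrophages by 2.24 (1.87 to 2.60), in a comparison where 84.2% of all genes were called. As so many genes differed between types, a call alone says little about Atp1b1, and the sizes carry the description.

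Below malignant cells the order was resolved only in part. Fibroblasts held 2.49, 4.24, 10.3 and 0.908 CPM of Atp1b1 and did not differ from malignant cells beyond their spread (difference 0.84, interval -0.17 to 1.86, adjusted p = 0.148, 45.7% called). A single fibroblast carried 18 of the 34 UMIs of this type. Without cells marked as doublets the difference was 1.26 (adjusted p = 0.0112), and without digoxin replicate 1 it was 1.29 (adjusted p = 0.0459). The cells named Epithelial held 8 UMIs in all and Osteoclasts 10, of which 8 lay in 1 cell of vehicle 2. Osteoclasts and macrophages did not differ beyond their spread (0.27, interval -0.47 to 1.00, adjusted p = 0.517, 54.2% called), a comparison limited by those few UMIs.

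Shares of cells describe the same Atp1b1 UMIs in another way and are not separate evidence. An Atp1b1 UMI was found in 177 of 182 cells named Microglia, 326 of 504 NK cells and 87 of 10363 macrophages. These shares came at medians of 9764.5, 11690.5 and 16412 UMIs per cell. To set populations side by side, the share expected had each cell been read to 3000 UMIs was computed, and 0 cells were too shallow for this. At that depth the share was 76.8% in the cells named Microglia, 25.4% in NK cells, 2.04% in malignant cells and 0.189% in macrophages. As free RNA can put UMIs into cells that do not express a gene, a share as low as that of macrophages need not mean expression. Free RNA was not measured here. The malignant share as measured was 21.3%, at a median of 52867 UMIs per cell. It lay above the measured share of T cells, 12.3% at a median of 7765 UMIs. At 3000 UMIs per cell the T cell share was 5.96%, above the malignant one.

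**Figure D1:**
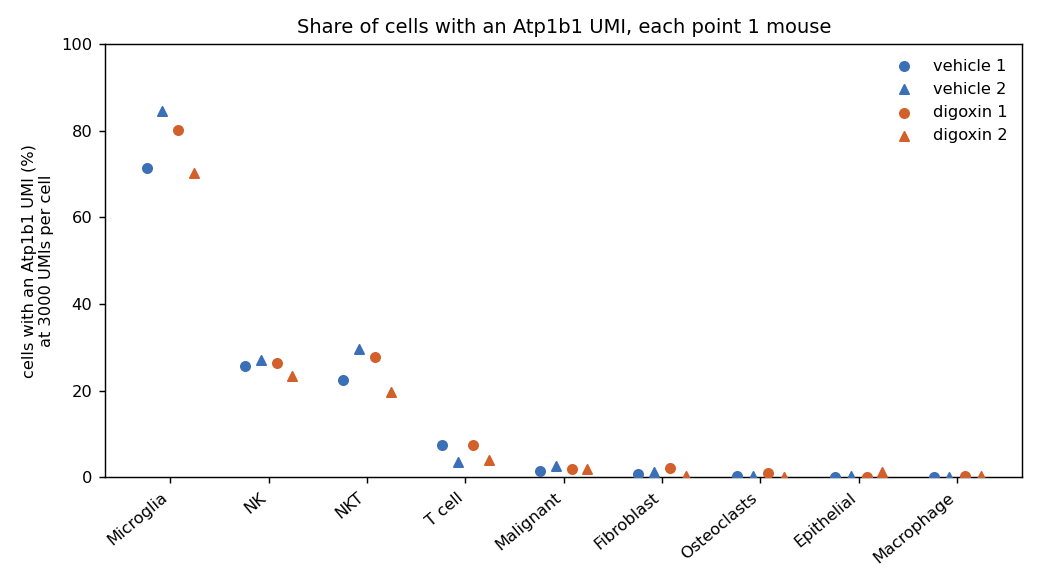
Share of cells with at least 1 Atp1b1 UMI (vertical axis, percent, each cell thinned to 3000 UMIs) in 9 populations (horizontal axis), with 1 point per mouse, blue for vehicle and orange for digoxin. All mice lie above 70% in the cells named Microglia, between 19.7% and 29.6% in NK and NKT cells, and near 0 in macrophages.

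Most of the T cell level of Atp1b1 came from a single sub-cluster. NKT cells, T cells that share receptors with NK cells, measured 92.8, 134.3, 114.3 and 78.1 CPM, a range that takes in all NK values. They were 124 of 579 T cells and held 108 of the 123 UMIs, or 87.8%. The other 455 T cells measured 6.90, 2.38, 2.31 and 3.01 CPM, below malignant cells in all mice but vehicle 1, so without NKT cells the step from T cells to malignant cells turned in the other mice. NKT cells were 52, 11, 39 and 22 of 183, 110, 155 and 131 T cells, and the mice with the larger NKT share were those with the higher mean over all T cells. NKT cells were too few in vehicle 2 for a test of their own.

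In all, the cells named Microglia made up 1.44% of the non-malignant cells and held 51.6% of their 2146 Atp1b1 UMIs. NK cells made up 3.98% and held 31.5%. Macrophages made up 81.9% of the cells and held 6.62% of the UMIs. Of their 142 UMIs, 66 lay in 11 cells with at least 2 each, and 6 of these 11 also had a Siglech UMI, which 0.550% of all macrophages had. Among malignant cells 300 cells with at least 5 UMIs held 2128 of 7943 Atp1b1 UMIs, or 26.8%. These cells were 1.20%, 1.99%, 1.66% and 1.28% of the malignant cells of the mice, so each tumor had them. The 3′ end of Atp1b1 overlaps Nme7 on the opposite strand, and reads of the pair cannot be told apart unless the counting used strand. Nme7 ranged from 6.59 to 14.1 CPM over the types and stood at 7.59 CPM in the cells named Microglia.

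Atp1b2, the beta subunit also described as an adhesion molecule of glia, was scarce, and its UMIs sat in a small set of cells. The gene lies on the minus strand at chr11:69599736-69605942 (ENSMUSG00000041329.13). The cells named Epithelial measured 21.5, 16.6, 9.06 and 20.3 CPM, from 24, 22, 16 and 45 UMIs. Fibroblasts measured 1.74, 2.20, 3.25 and 1.98 CPM, and malignant cells 0.259, 0.215, 0.271 and 0.232 CPM. The lowest Epithelial value lay above every fibroblast value, and the lowest fibroblast value above every malignant one. No test of the first pair is given, because fibroblasts held only 5, 2, 3 and 4 UMIs and the gene passed the filter on low values there only through the cells named Epithelial. On the log2 scale fibroblasts exceeded malignant cells by 1.38. This value rests on the same few fibroblast UMIs, and all 3 of digoxin 1 lay in 1 cell, so its test is not given either.

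No Atp1b2 UMI was found in the 579 T cells or the 182 cells named Microglia, which allows a share of cells with a UMI of up to 0.518% and 1.65%. With 3 UMIs taken as the limit over the 4 mice, the cells named Epithelial were at least 23.2-fold higher than T cells and at least 7.19-fold higher than the cells named Microglia. These limits cover counting error only. Macrophages held 16 UMIs in 10363 cells, and NK cells and Osteoclasts held 1 each. At 3000 UMIs per cell, 3.69% of the cells named Epithelial, 0.624% of fibroblasts, 0.0722% of malignant cells and 0.0282% of macrophages had an Atp1b2 UMI.

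Within the cells named Epithelial, Atp1b2 followed the markers of pericytes and smooth muscle, the contractile cells that wrap vessels. The split asked for at least 3 of the 5 genes Rgs5, Pdgfrb, Acta2, Myh11 and Notch3 in a cell, a threshold chosen after the data were seen, and it carries no test. The 47 cells that passed held 100 of the 107 UMIs of this type, and the other 300 cells held 7. Among the 47 cells, 23 lacked the endothelial markers by the same threshold and measured 214, 278, 115 and 211 CPM. The 24 cells with both kinds of marker measured 0, 34.3, 23.0 and 55.7 CPM. The 285 cells with endothelial markers alone measured 0.154, 0, 0.222 and 2.07 CPM. The cells with both kinds of marker had a median of 44728 UMIs, against 12856 and 19494 in the sets with only 1 kind.

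**Figure D2:**
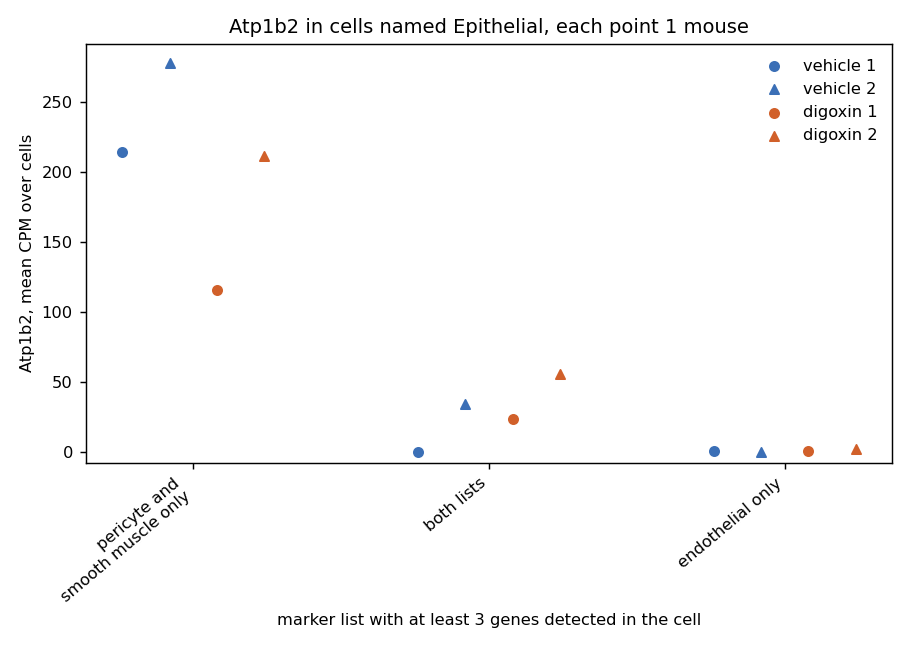
Mean Atp1b2 level (vertical axis, CPM over cells) in the cells named Epithelial, split by which marker list had at least 3 genes detected in the cell (horizontal axis), with 1 point per mouse, blue for vehicle and orange for digoxin. The 4 mice lie between 115 and 278 CPM in cells with pericyte and smooth muscle markers alone and at or below 2.07 CPM in cells with endothelial markers alone.

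Atp1b3 and Fxyd5 ran the other way across that split. Atp1b3 measured 270.0, 260.9, 264.6 and 283.9 CPM in the cells with endothelial markers alone, and 116.6, 165.8, 59.6 and 90.2 CPM in those with pericyte and smooth muscle markers alone. The values of the sets did not overlap, although the second rests on 10 to 17 UMIs per mouse. Fxyd5 measured 486, 499, 517 and 550 CPM in the first set, and 175, 305, 439 and 220 CPM in the second. These did not overlap either. Of the beta subunits, the 285 cells with endothelial markers alone held 0 UMIs of Atp1b1, 6 of Atp1b2 and 1973 of Atp1b3.

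Atp1b3, the beta subunit known from white blood cells as the surface antigen CD298, was present in every population. The gene lies on the minus strand at chr9:96332655-96364442 (ENSMUSG00000032412.8). Macrophages measured 258.6, 209.1, 274.9 and 283.3 CPM, and the cells named Epithelial 252.8, 253.1, 243.4 and 254.3 CPM. Malignant cells measured 72.2, 70.6, 73.8 and 76.6 CPM, and fibroblasts 66.1, 65.1, 68.2 and 58.1 CPM. By CPM, malignant cells lay below every one of the 7 tested host types except fibroblasts in each mouse. As plain counts, 18963 malignant cells held 88642 Atp1b3 UMIs and 10363 macrophages held 46969. The median cell had 52867 UMIs of all genes in the first and 16412 in the second, so the CPM order is not one of UMIs per cell. Macrophages were 3.50-fold above malignant cells by mean CPM, and malignant minus macrophage was -1.78 on the log2 scale (interval -1.93 to -1.64).

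Between those ends Atp1b3 fell in small steps, of which some did not exceed the spread between mice. Macrophages and the cells named Epithelial did not differ beyond it (0.02, interval -0.17 to 0.22, adjusted p = 0.842, 58.9% called). The cells named Epithelial exceeded T cells by 0.21 with an interval above 0, but were not called after adjustment (0.01 to 0.42, adjusted p = 0.0748, 54.6% called). That difference was 0.29 (adjusted p = 0.0441) without digoxin replicate 2. T cells exceeded Osteoclasts by 0.35 (0.07 to 0.62, adjusted p = 0.0296, 64.8% called). That call was lost with edgeR (0.10), and it was lost without vehicle replicate 1, vehicle replicate 2 or digoxin replicate 2 (adjusted p = 0.0614, 0.148 and 0.0505). Between Osteoclasts and NK cells no difference was resolved (0.0047, interval -0.24 to 0.25, adjusted p = 0.974, 63.9% called). NK cells exceeded the cells named Microglia by 0.37 (0.12 to 0.63, adjusted p = 0.0186), a call lost without vehicle replicate 1, vehicle replicate 2 or digoxin replicate 1 (adjusted p = 0.0540, 0.0724 and 0.0534). The cells named Microglia exceeded malignant cells by 0.82 (0.56 to 1.09, adjusted p = 0.0017, 61.6% called). Malignant cells and fibroblasts were not resolved (0.19, -0.02 to 0.39, adjusted p = 0.120), although edgeR on summed UMIs called them (0.29, adjusted p = 0.0339).

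Fxyd5 was lowest in malignant cells among the 8 tested populations and highest in Osteoclasts. The gene lies on the minus strand at chr7:31032722-31042481 (ENSMUSG00000009687.14). Osteoclasts, the bone-resorbing relatives of macrophages, measured 1435, 1621, 1338 and 1392 CPM, and their markers Ctsk and Acp5 were at 9188 and 11381 CPM. T cells measured 915, 1091, 986 and 872 CPM, macrophages 807, 993, 890 and 930 CPM, and NK cells 855, 855, 801 and 813 CPM. The cells named Epithelial measured 450, 487, 519 and 559 CPM, and fibroblasts 314, 196, 251 and 248 CPM. The cells named Microglia measured 216, 141, 169 and 200 CPM, and malignant cells 97.3, 97.7, 85.8 and 89.1 CPM. Every tested host type lay above malignant cells in each mouse, Osteoclasts by 15.6-fold and macrophages by 9.78-fold in mean CPM.

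Osteoclasts exceeded T cells by 0.58 on the log2 scale (interval 0.43 to 0.74, adjusted p = 1.9e-05). T cells, macrophages and NK cells came next, and neighbours in that order did not differ beyond their spread. T cells minus macrophages was 0.09 (-0.07 to 0.26, adjusted p = 0.316, 52.7% called), and macrophages minus NK cells was 0.12 (-0.02 to 0.26, adjusted p = 0.130, 58% called). The last of these was called at 0.19 (adjusted p = 0.0404) without vehicle replicate 1. T cells exceeded NK cells by 0.21 (0.07 to 0.35, adjusted p = 0.0302, 25.1% called) in all 4 mice, a call lost with edgeR (0.12, adjusted p = 0.270) and without vehicle replicate 2, digoxin replicate 1 or digoxin replicate 2 (adjusted p = 0.0533, 0.161 and 0.0544). NK cells exceeded the cells named Epithelial by 0.73 (0.57 to 0.88, 57.4% called), and these exceeded fibroblasts by 1.01 (0.72 to 1.30, 50.3% called). Fibroblasts exceeded the cells named Microglia by 0.47 (0.23 to 0.72, adjusted p = 0.0049, 59.2% called), a call lost with CPM of summed UMIs (0.26, adjusted p = 0.105). The cells named Microglia exceeded malignant cells by 0.95 (0.63 to 1.27, adjusted p = 0.0019).

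**Figure D3:**
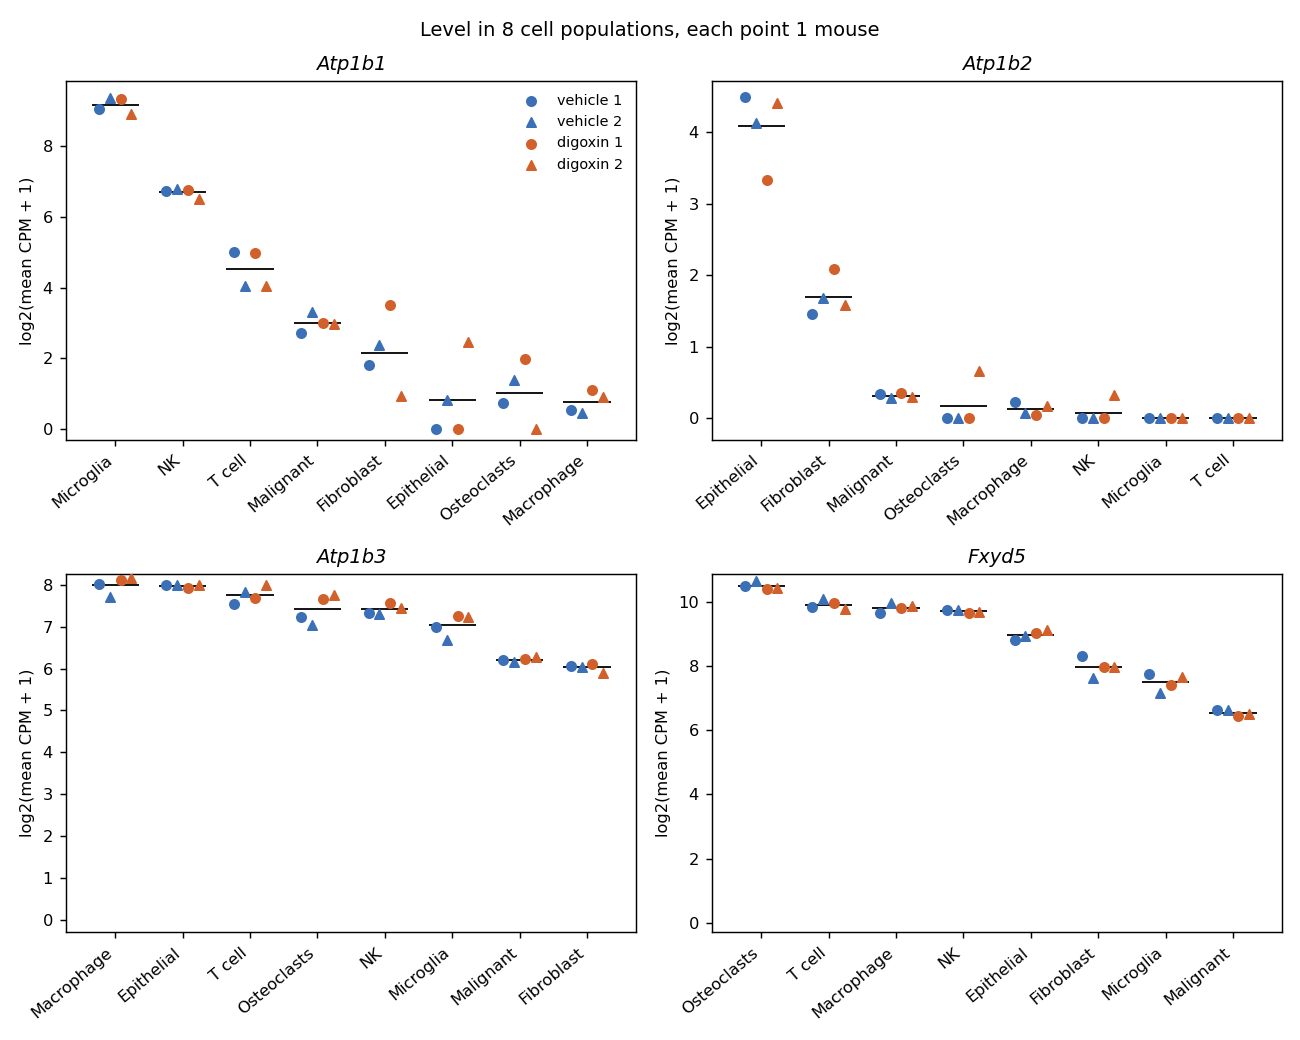
Level of each gene (vertical axis, log2 of mean CPM plus 1, 1 panel per gene) in malignant cells and 7 host cell types (horizontal axis, ordered by mean CPM), with 1 point per mouse, blue for vehicle and orange for digoxin, and a bar at the mean of the 4 points. Malignant cells come last for Fxyd5 and second to last for Atp1b3, and vehicle and digoxin points lie among each other in most columns.

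Among macrophages, Fxyd5 separated the deposited sub-clusters more widely than Atp1b3 did. M1 cells, named for the inflammatory state, measured 1084, 1466, 1176 and 1188 CPM of Fxyd5. M2 cells, named for the repair state, measured 543, 779, 609 and 733 CPM, and the highly proliferative M2 cells 665, 940, 709 and 755 CPM. In each mouse M1 was highest and M2 lowest. M1 exceeded M2 by 0.89 (interval 0.75 to 1.02, 60.2% of genes called), and M2 lay below highly proliferative M2 by 0.21 (-0.30 to -0.11 as M2 minus the other, adjusted p = 0.0014, 61.4% called). Vehicle 2 was highest in all 3 sub-clusters, above both digoxin mice, and vehicle 1 was lowest.

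Atp1b3 in M1 cells measured 262.8, 239.7, 293.3 and 303.5 CPM, against 248.4, 193.9, 250.2 and 268.1 CPM in M2. M1 exceeded M2 by 0.20 (0.08 to 0.32, adjusted p = 0.0099). M1 and highly proliferative M2 were not resolved (0.08, -0.04 to 0.19, adjusted p = 0.202, 66.3% called), but edgeR called 0.26 (adjusted p = 0.000883). M2 lay 0.12 below highly proliferative M2 (-0.21 to -0.03 as M2 minus the other, adjusted p = 0.0241), a call lost with edgeR (-0.08) and without vehicle replicate 1, vehicle replicate 2 or digoxin replicate 1.

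**Figure D4:**
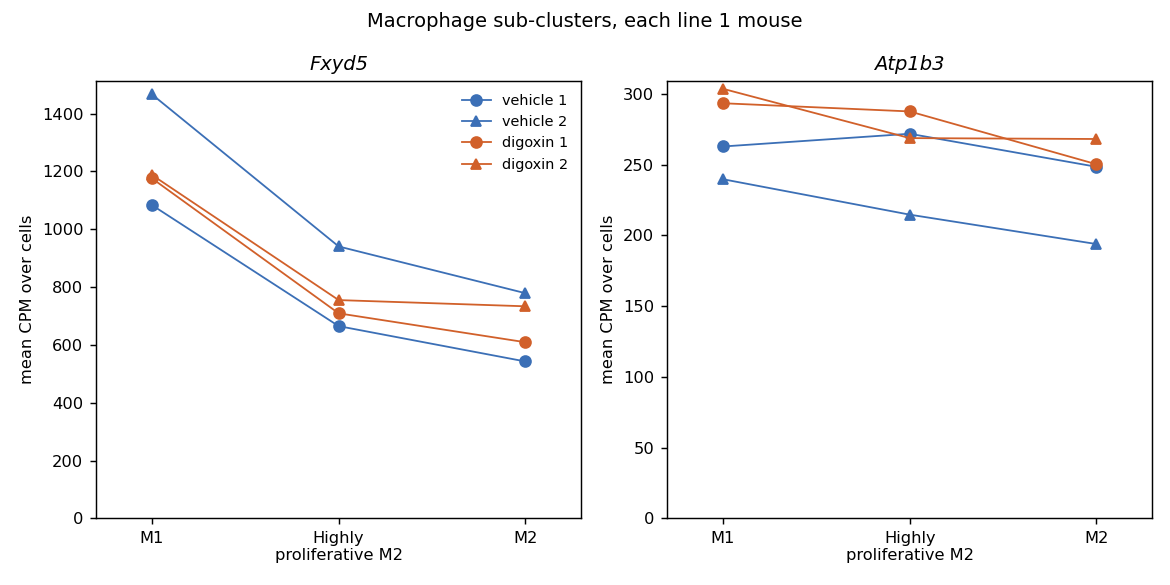
Mean level (vertical axis, CPM over cells) of Fxyd5 and Atp1b3 in 3 macrophage sub-clusters (horizontal axis), with 1 line per mouse, blue for vehicle and orange for digoxin. Every Fxyd5 line falls from M1 to M2, with values from 1084 to 1466 CPM in M1 and from 543 to 779 CPM in M2.

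Types with too few cells for a test are given as values. Neutrophils were 11, 5, 34 and 23 cells, dendritic cells 18, 21, 14 and 10, and B cells 18, 4, 10 and 9. Of the B cells 3, 2, 4 and 2 were marked as doublets. Without these, B cells measured 90.0, 198.1, 83.8 and 32.6 CPM of Atp1b3. Neutrophils measured 1024, 1687, 930 and 1200 CPM of Fxyd5 and 297.3, 231.0, 174.5 and 214.8 CPM of Atp1b3. Dendritic cells measured 249, 225, 149 and 243 CPM of Fxyd5, and B cells 201.8, 309.5, 149.7 and 233.0 CPM. For Atp1b3, dendritic cells measured 81.1, 60.3, 83.4 and 72.1 CPM and B cells 82.3, 157.0, 56.2 and 43.7 CPM, both ranges taking in the malignant values. The 30 cells named Unknown came from vehicle 2 alone and had Fxyd5 at 17.4 CPM, below every population named here, with Atp1b3 at 73.6 CPM.

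Vehicle and digoxin mice were compared in each population, to see how the subunits of digoxin's own target stood after treatment. Of the 38 member differences that could be tested over 13 overlapping populations, limma called 0, edgeR 0 and DESeq2 0, and 3 stood under 0.05 before adjustment. Few genes of any kind were called: 0% of 17138 in malignant cells (585 under 0.05 before adjustment), 0% of 14879 in all non-malignant cells (581), 0.467% in the cells named Epithelial, 0.0765% in NK cells, 0.0128% in Osteoclasts and 0.0312% in Treg cells. With DESeq2 the called genes numbered 45 in the malignant and 30 in the non-malignant compartment. With 2 mice a group, large changes could have gone unseen. The intervals are for each gene alone and are not adjusted for the number of genes tested. An interval that excludes 0 therefore need not go with a call.

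In malignant cells no member difference was called, and the intervals were narrowest for Atp1b3 and Fxyd5 among the genes well above the added 1 CPM. Atp1b3 measured 71.4 ± 1.14 CPM with vehicle and 75.2 ± 1.96 CPM with digoxin (SD, n = 2). Both digoxin mice were higher, as for 12.8% of all genes, and the difference was 0.07 on the log2 scale (interval -0.09 to 0.24, adjusted p = 1.00). Fxyd5 measured 97.5 ± 0.302 CPM with vehicle and 87.5 ± 2.35 CPM with digoxin (SD, n = 2). Both digoxin mice were lower, as for 16.5% of all genes (difference -0.15, interval -0.32 to 0.01, adjusted p = 1.00). The 7 macrophage markers, summed over malignant cells, stood at 298 and 274 CPM with vehicle and 217 and 220 CPM with digoxin, 4 of them above 20 CPM, against 8936 to 12685 CPM in macrophages. The share of malignant cells marked as doublets was 8.50% and 7.37% with vehicle and 5.49% and 5.56% with digoxin, and the Fxyd5 difference was -0.16 without them. The part of the markers in the difference was not tested. Atp1b1 differed by -0.03 (-0.56 to 0.50) and turned to 0.28 without vehicle replicate 2. Atp1b2 differed by 0.02 (-0.10 to 0.13), at levels so low that the added 1 CPM hides most of any change.

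Atp1b3 was higher in both digoxin mice in 5 of the 8 tested populations and lower in both in 0. Besides malignant cells these were macrophages, Osteoclasts, NK cells and the cells named Microglia, in which 13.6%, 21.6%, 19.1% and 16.7% of all genes lay the same way. The share of all genes lower in both was 17.3% in macrophages and 16.2% in the cells named Microglia. Fibroblasts and T cells overlapped for Atp1b3, where 10.1% and 14.3% of all genes were higher in both digoxin mice and 19.4% and 19% lower. So did the cells named Epithelial, where the lower share was 16.3%. The populations come from the same 4 mice, so the 5 are not separate observations. Osteoclasts measured 148.7, 129.5, 200.4 and 215.7 CPM, and their difference of 0.58 (interval 0.24 to 0.92) had an unadjusted p of 0.00326 and an adjusted p of 0.781. Osteoclasts were 28, 152, 47 and 36 cells. In macrophages the difference was 0.26 (-0.05 to 0.57, adjusted p = 1.00). Macrophages over 10% mitochondrial UMIs, a sign of RNA quality, were 6.04% and 11.7% with vehicle and 2.04% and 1.79% with digoxin, and the difference was 0.27 without those cells. The shares of such Osteoclasts were 35.7%, 57.2%, 25.5% and 36.1%, and the Osteoclast difference was 0.51 without them. The macrophage difference was 0.41 without vehicle replicate 1 and 0.11 without vehicle replicate 2, the lowest mouse for Atp1b3 in 5 of the 8 populations. In NK cells the difference was 0.18 (-0.08 to 0.44). Without cells marked as doublets NK cells measured 159.4, 158.9, 185.1 and 158.5 CPM, so their groups then overlapped. In the cells named Microglia the difference was 0.40 (-0.09 to 0.90) with all mice and 0.24 without vehicle replicate 2.

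Atp1b3 was also higher in both digoxin mice in M1 cells (0.25, interval 0.01 to 0.49, unadjusted p = 0.0422, adjusted p = 0.615) and M2 cells (0.24, -0.12 to 0.60), in which 15.3% and 15% of all genes lay the same way. In M2 cells vehicle 2 stood lowest, at 193.9 CPM, whereas vehicle 1 at 248.4 CPM lay close to digoxin 1 at 250.2 CPM. In highly proliferative M2 cells the groups overlapped, at 271.8, 214.6, 287.6 and 268.7 CPM (0.20, -0.09 to 0.49). Treg cells measured 143.0, 230.8, 238.2 and 260.6 CPM, and both digoxin mice were higher as for 16.5% of all genes (0.45, -0.12 to 1.03). Most of that difference came from the low vehicle 1 value. Over all non-malignant cells the Atp1b3 difference was 0.27 (-0.01 to 0.55, adjusted p = 0.975), and 12.4% of all genes lay the same way. The levels were 239.1, 200.7, 258.4 and 269.4 CPM, so the size depends much on vehicle 2. Malignant cells and non-malignant cells did not differ in their digoxin difference beyond the spread (interaction -0.19, interval -0.43 to 0.05, adjusted p = 0.970).

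Fxyd5 was lower in both digoxin mice in malignant cells, NK cells and Osteoclasts and higher in both in the cells named Epithelial. In NK cells the difference was -0.08 (interval -0.26 to 0.09), and 16.9% of all genes lay the same way. In Osteoclasts it was -0.16 (-0.43 to 0.10), with 15.8%. Vehicle 2, with 152 of the 263 Osteoclasts, stood apart at 1621 CPM, against 1435 CPM in vehicle 1 and 1338 and 1392 CPM with digoxin. In the cells named Epithelial it was 0.20 (-0.05 to 0.46, adjusted p = 0.943), with 17.8%. The 4 mast cell markers Cpa3, Mcpt4, Cma1 and Kit moved with the groups in that type, as their summed level was 59.4 and 223 CPM with vehicle and 3803 and 3721 CPM with digoxin. In the cells with endothelial markers alone Fxyd5 was higher in both digoxin mice, at 517 and 550 CPM against 486 and 499 CPM. The cells with neither endothelial nor pericyte and smooth muscle markers measured 375, 578, 829 and 1149 CPM, from 2, 3, 4 and 6 cells. In the cells with pericyte and smooth muscle markers alone, and in those with both kinds, the groups overlapped. The part of the mast cell markers in the Fxyd5 difference was not tested. Over all non-malignant cells the Fxyd5 difference was 0.01 (-0.31 to 0.33), and the interaction with compartment was -0.17 (-0.45 to 0.12, adjusted p = 0.970).

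Atp1b1 in macrophages was the third difference with an unadjusted p under 0.05. Both digoxin mice were higher, as for 13.6% of all genes, and the difference was 0.51 on the log2 scale (interval 0.18 to 0.83, unadjusted p = 0.00888, adjusted p = 1.00). It was 0.47 without cells over 10% mitochondrial UMIs. It rests on 27 and 15 UMIs with vehicle and 44 and 56 with digoxin. Without the 11 cells that had at least 2 UMIs the levels were 0.277, 0.382, 0.438 and 0.733 CPM. In highly proliferative M2 cells of digoxin 1, 3 cells with 7 UMIs each held most of the 23 UMIs. In M1 and M2 cells the differences were 0.41 (-0.21 to 1.02) and 0.16 (-0.33 to 0.64), and the last changed sign under 3 alternatives. In M1 cells digoxin 2 held 34 of the 58 UMIs, and digoxin 1 at 0.485 CPM lay close to vehicle 1 at 0.447 CPM. Over all non-malignant cells Atp1b1 differed by -0.06 (-0.86 to 0.74) and Atp1b2 by -0.18 (-0.59 to 0.22). Their interactions with compartment were 0.03 (-1.02 to 1.07) and 0.20 (-0.24 to 0.64).

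**Figure D5:**
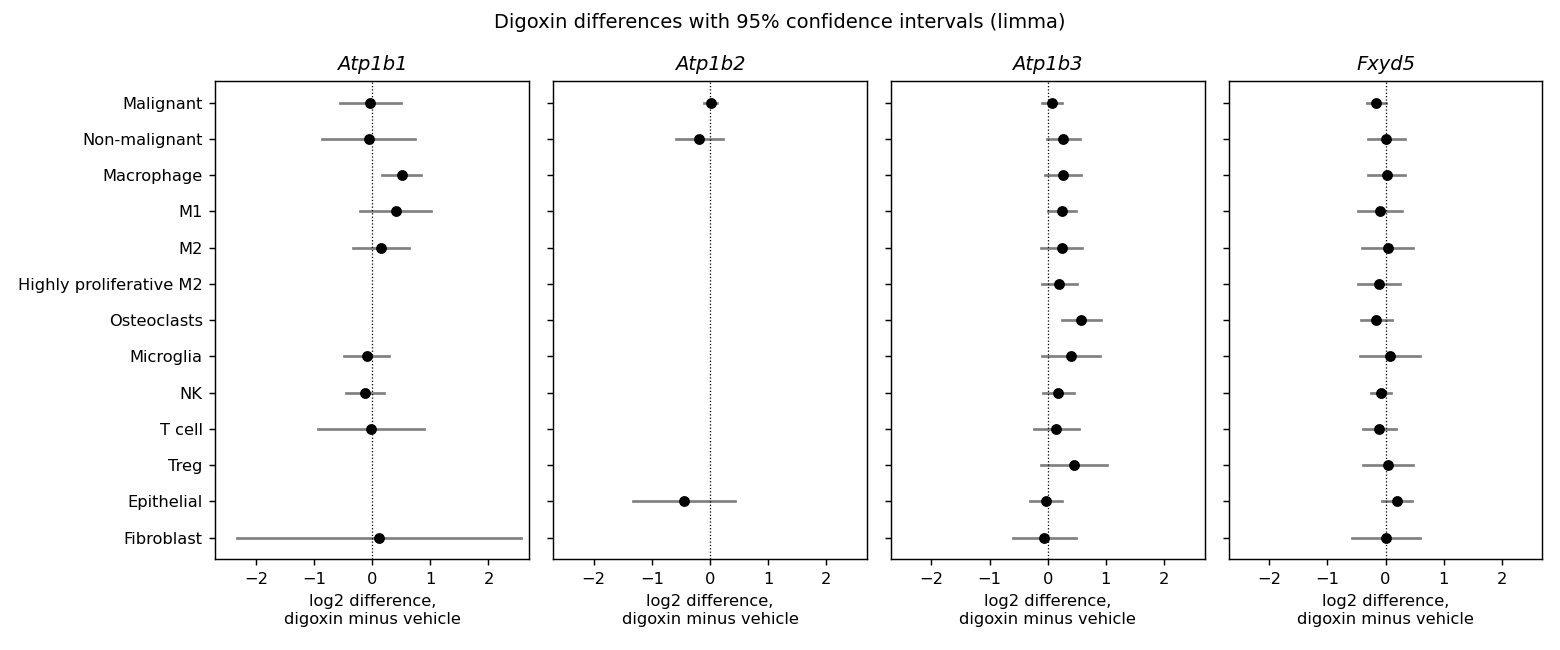
Difference between digoxin and vehicle mice (horizontal axis, log2 of mean CPM plus 1, points) with its 95% confidence interval (bars) for each gene (panels) in up to 13 populations (vertical axis). A gene with too few UMIs for the test in a population has no point there, and 0 of the 38 differences passed the threshold. The interval of Atp1b1 in fibroblasts is by far the widest.

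The wider pathway was read through fixed lists of beta and FXYD subunits, related ion pumps, anchors and signalling partners, regulators, digoxin efflux pumps and adhesion partners of Fxyd5. Beyond the members, 0 of 42 list genes were called in malignant cells, with 4 under 0.05 before adjustment (585 of 17138 over all genes). Both digoxin mice were higher for 9 and lower for 6, where 12.8% of all genes were higher and 16.5% lower, and the median difference was 0.00 against -0.01 over all genes tested. In macrophages 0 of 38 were called, again with 4 under 0.05 before adjustment (555 of 13734 over all genes). Both digoxin mice were higher for 11 and lower for 2, where 13.6% of all genes were higher and 17.3% lower, and the median was 0.08 against -0.01 over all genes. In all non-malignant cells 0 of 39 were called, with 4 under 0.05 before adjustment (581 of 14879 over all genes). Both digoxin mice were higher there for 10 and lower for 4, where 12.4% of all genes were higher and 20.6% lower, and the median was 0.01 against -0.02. Macrophages made up most of these cells, so these counts are not independent of the macrophage ones.

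The FXYD family in malignant cells was counted next. Of its 7 tested genes, Fxyd5 included, 4 were lower in both digoxin mice (16.5% of all genes were), 0 were higher in both (12.8%) and 0 were called. The summed macrophage markers, lower with digoxin in these same cells, moved with this count, and Fxyd5 and Fxyd2 are among the 4 and had higher levels in macrophages. Fxyd1, also among the 4, was scarcer in macrophages, at 1.30, 0.738, 0.336 and 0.829 CPM. The last of the 4, Fxyd3, measured 0.103, 0.0919, 0.0442 and 0.0436 CPM in malignant cells. Fxyd2 measured 0.926, 0.944, 0.518 and 0.769 CPM there, so both lay under the added 1 CPM. The part of the markers was not tested. Besides Fxyd5, Fxyd1, the regulator known from heart and muscle as phospholemman, was the only one above 10 CPM in the vehicle mice, at 13.4, 14.0, 11.7 and 9.93 CPM (adjusted p = 1.00). In macrophages, where 17.3% of all genes were lower in both, 1 of 6 was, Fxyd2, the regulator of the kidney pump, at 25.6, 41.9, 18.9 and 24.9 CPM (adjusted p = 1.00). Abcb1b, an efflux pump that carries digoxin out of cells, measured 39.6, 42.2, 44.6 and 50.6 CPM in malignant cells and 30.6, 28.8, 31.6 and 34.8 CPM in macrophages. Its digoxin values were the higher ones in both, as for 12.8% and 13.6% of all genes, and neither difference was called. The groups of Abcb1a, the other efflux gene on the list, overlapped in both populations. In malignant cells it measured 7.79, 10.1, 9.78 and 8.39 CPM (0.03, interval -0.35 to 0.41).

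List genes at 20 CPM or more whose groups did not overlap and whose unadjusted p was under 0.05 are given by value. In malignant cells Sgk1, a kinase known to raise pump levels in kidney, measured 369.8, 397.6, 432.8 and 449.4 CPM (log2 difference 0.20, adjusted p = 1.00). Ezr, which ties membrane proteins to the actin cytoskeleton, measured 63.4, 64.9, 72.5 and 77.1 CPM there (0.22, adjusted p = 1.00). In macrophages Ezr measured 128.3, 108.0, 147.7 and 149.8 CPM (0.34, adjusted p = 1.00). Wnk1, a kinase of salt balance, measured 403.6, 331.1, 486.5 and 587.8 CPM in macrophages (0.55, adjusted p = 1.00). Atp2b4, a calcium pump of the cell membrane, measured 23.8, 17.2, 32.1 and 43.0 CPM (0.85, adjusted p = 1.00), and Sik1, a kinase that responds to cell sodium, 51.9, 49.1, 61.9 and 63.8 CPM (0.31, adjusted p = 1.00). Vehicle 2 was the lowest mouse for each of these 4 in macrophages, as it was for Atp1b3. None of the 6 passed the threshold. A crossed replicate block, which paired vehicle 1 with digoxin 2 and vehicle 2 with digoxin 1, was added after the data were seen. No label gives that pairing. With it Atp2b4 was called in macrophages (adjusted p = 0.0188), as were 65 genes in all there, against 0 without it. By the rule of level, overlap and unadjusted p, 4 genes were found in all non-malignant cells (adjusted p = 0.975 each). They were Atp2b4, Wnk1 and Sik1 again, and Atp2b1, another calcium pump of the cell membrane, at 389.5, 390.0, 473.7 and 455.1 CPM.

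Genes with the most similar pattern of levels over the 8 tested populations were taken by Pearson correlation of log2 levels. The correlations share the same libraries, say nothing of how widely a gene ranges, and are given as a description. Closest to Atp1b1 were Luc7l2 (r = 0.966), Gm16152 (0.963) and Mctp2 (0.962), among 9103 genes compared. Mctp2 stood at 295 CPM in the cells named Microglia and 43.1 CPM in NK cells. Luc7l2 varied far less than Atp1b1, from 161 CPM in macrophages to 319 CPM in the cells named Microglia. Closest to Atp1b2 were Meox1 (0.999), Tek (0.997) and Hecw2 (0.997), all highest in the cells named Epithelial. Inside that type they did not sit in the same cells, as the 47 cells with pericyte and smooth muscle markers held 93.5% of the Atp1b2 UMIs but 10.3% of those of Meox1, 11.4% of Tek and 11.5% of Hecw2. Closest to Atp1b3 were Rab35 (0.964), Dgkz (0.962) and Slc16a6 (0.960), and closest to Fxyd5 were Tmem135 (0.969), Ubap1 (0.953) and Sh3bgrl3 (0.944).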

How the data were processed

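Single cells were taken from sarcomas of 2 vehicle and 2 digoxin mice, and malignant and non-malignant cells were deposited as separate tables. Cell Ranger 3.0.2, Seurat 3.0.2 and the build mm10 are named in the submitters' processing notes. One vehicle library carries another number in its cell names and is vehicle replicate 2 in the deposited cell table. The deposited values are natural log values, ln(1 + UMIs per 10000 UMIs of the cell), per their fit to the deposited count of UMIs per cell: 100% of values above 0 gave whole UMIs within 0.01, and the sums equalled the deposited counts in all 18963 and 12648 cells. Of 31498 barcodes, 113 (0.359%) occurred in more than 1 library, 0 cells were in both tables, and 0 columns belonged to no sample.

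UMIs were scaled to CPM per cell and averaged per mouse and population. Genes were kept by filterByExpr of edgeR 4.0.16 on summed UMIs, and log2(mean CPM + 1) was fitted with limma 3.58.1 (empirical Bayes with trend, two-sided, Benjamini-Hochberg adjustment over all genes kept, threshold 0.05, 95% intervals from the fit). Tests between populations and the interaction had the mouse as a block. All deposited cells were used. Scrublet (scanpy 1.11.5), run per mouse, marked 1381 of 31611 cells (4.37%), and leaving them out was an alternative. Other alternatives were edgeR's quasi-likelihood test, DESeq2 1.42.0, pseudocounts of 0.1 and 10, no filter, CPM of summed UMIs, a replicate block, leaving out cells over 10% mitochondrial UMIs and leaving out each mouse. Fold changes on the log2(CPM + 1) scale understate changes of low genes. The scripts were tested on simulated data. Gene positions are from GENCODE M21 on GRCm38, the same assembly as mm10. Whether the counting used strand is not given in the sources used here.

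The members, lists and tests were chosen with earlier results of these data known. The text names the 4 members everywhere, the 3 genes most correlated with each over 8 populations among genes of at least 20 CPM in 1 of them, and list genes at 20 CPM or more whose groups did not overlap at an unadjusted p under 0.05. The last 2 conditions of that rule, the split of the cells named Epithelial and the marker genes quoted were set after values were seen. Fxyd1, Fxyd2, Fxyd3, Abcb1a, Abcb1b and the overlapping gene Nme7 are named outside that rule. The catalytic subunits of the pump and a further allele of the genotype are not reported here.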

Additional observations from a re-analysis of the deposited data

How the results depend on the processing

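Of the 38 member differences with digoxin, 0 were called in any of 530 refits over 14 alternatives, 61 of which had the other sign; the smallest adjusted p was 0.0537. On the log2 scale, edgeR, DESeq2 and CPM of summed UMIs gave 0.21, 0.21 and 0.12 for Atp1b1 and 0.24, 0.24 and 0.057 for Atp1b2 in non-malignant cells, and -0.12, -0.14 and -0.049 for Atp1b1 in M2 cells, all against the sign reported. Without cells over 10% mitochondrial UMIs Fxyd5 in non-malignant cells was -0.0078. Leaving out 1 mouse gave -0.34 to 0.28 for Atp1b1 and -0.0089 to 0.042 for Atp1b2 in malignant cells, and -0.49 to 0.38, -0.15 to 0.17 and -0.38 to 0.0083 for Atp1b1, Fxyd5 and Atp1b2 in non-malignant cells. The interaction of Atp1b1 was -0.22 with edgeR and -0.51 to 0.56 with 1 mouse left out, and that of Atp1b2 was -0.014 to 0.41. The cause of these changes was not tested.

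Between populations, 240 values kept direction and call, 6 changed sign, 6 gained a call and 17 lost one. Atp1b1 in malignant cells minus fibroblasts was 1.26 without doublets and 0.45 to 1.29 with 1 mouse left out. For Atp1b3 with 1 mouse left out, macrophages minus Epithelial was -0.029 to 0.12, Epithelial minus T cells 0.14 to 0.29, T cells minus Osteoclasts 0.19 to 0.46, Osteoclasts minus NK -0.10 to 0.10, NK minus Microglia 0.29 to 0.43, and M2 minus highly proliferative M2 -0.16 to -0.093. With edgeR, T cells minus Osteoclasts was 0.10, malignant minus fibroblasts 0.29, M1 minus highly proliferative M2 0.26 and M2 minus it -0.077. With CPM of summed UMIs T cells minus Osteoclasts was 0.28, Osteoclasts minus NK -0.014 (-0.013 without cells over 10% mitochondrial UMIs), and Fxyd5 in fibroblasts minus Microglia 0.26. Fxyd5 in macrophages minus NK was 0.086 to 0.19 and in T cells minus NK 0.17 to 0.25 with 1 mouse left out, the last 0.12 with edgeR.

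Deviations of same-numbered mice correlated across genes at -0.36 in malignant cells, 0.01 in non-malignant cells and -0.04 in macrophages. With 2 mice a group these values cannot decide whether the replicate numbers pair the samples. With the replicate block, 0 member differences were called; the number of genes called went from 0 to 2 in non-malignant cells, from 48 to 85 in the Epithelial type, from 7 to 23 in NK cells and from 0 to 57 in T cells. A crossed replicate block, added after seeing the data, called 0 members and 0, 65 and 189 genes in malignant cells, macrophages and the Epithelial type, and of the list genes it called Atp2b4 in macrophages (adjusted p = 0.0188). Over all genes in malignant cells edgeR called 0 and DESeq2 45, and in non-malignant cells 0 and 30. Having 2 mice a group limits every digoxin comparison.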
